A study of Mus musculus with 6 samples.

Results

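miR-298, miR-296-5p and miR-296-3p come from 2 neighbouring hairpins at the imprinted Gnas locus, and all 3 lay lower in CD8+ T cells primed by dendritic cells than in those primed by B cells on the authors' normalized scale. Relative to the snoRD47 control wells of their own stretch of the table all 3 had the opposite sign (0.42, 0.91 and 1.92 on the log2 scale), and miR-296-3p also relative to the RNY3 control wells there (0.28). The median assay was at 1.30 relative to snoRD47, above miR-298 and miR-296-5p but below miR-296-3p, and at 0.86 relative to RNY3. The 2 snoRD47 wells there lay 7.65 and 4.27 PCR cycles apart in the dendritic cell-primed samples of rounds 2 and 3. The members were the mouse-named assays (mmu-miR-298, mmu-miR-296-5p and mmu-miR-296-3p) for miR-298 and for either arm of miR-296, star strands left out, which gave 3 of the 350 miRNA assays in the deposited threshold cycle (Ct) table. No other assay of these hairpins was found in that table. They were selected on the size and evenness of their dCt difference in these same samples, so their values are a description and carry no test.

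Quantitative RT-PCR with SYBR Green was used to measure miRNA in CD8+ pMel-1 transgenic T cells, whose receptor recognizes the melanocyte antigen gp100. In the DC-primed group (3 samples) the cells had been activated in vitro by bone marrow-derived dendritic cells matured with lipopolysaccharide. In the B cell-primed group (3 samples) splenic B cells loaded with the hgp100 peptide had activated them. Both groups were cultured for 3 days, and the 3 rounds each hold 1 DC-primed and 1 B cell-primed sample. The labels give no mouse strain, age or further allele, and no step that removed the priming cells before RNA extraction is given in the sources used here, so each sample is a bulk RNA in which fewer cells of a type and less RNA per cell cannot be told apart.

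Gnas encodes the stimulatory G protein alpha subunit that couples hormone receptors to cyclic AMP, and its locus carries several overlapping transcripts expressed from only the maternal or only the paternal allele. miR-296 and miR-298 belong to this imprinted cluster in mouse and are expressed from the paternal allele. miR-296 has been studied in human endothelial cells, where it acts in angiogenesis through the growth factor receptor sorting protein HGS, and in mouse embryonic stem cells, where it can repress Nanog. Mouse miR-298 can repress Bace1, a protease that processes the amyloid precursor protein. The assays did not distinguish alleles.

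In RefSeq (GRCm38.p6) both hairpins lie on the minus strand of chromosome 2, Mir296 at chr2:174267047-174267125 and Mir298 at chr2:174267504-174267585, with 378 bases between them. Both are annotated as separate miRNA genes, and the next annotated genes on one side are Gnasas1, the antisense RNA also called Nespas, and then Gnas. The hairpins are shown because they place the annotated arms (in capitals, 5′ to 3′) on their precursors.
Mir298: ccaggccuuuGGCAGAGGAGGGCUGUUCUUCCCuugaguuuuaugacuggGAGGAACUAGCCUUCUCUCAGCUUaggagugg
Mir296: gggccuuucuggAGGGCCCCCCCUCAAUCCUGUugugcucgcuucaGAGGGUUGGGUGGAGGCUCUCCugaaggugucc

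The mature arms are shown with the seed, bases 2 to 8, in capitals, since the seed decides which mRNAs a miRNA pairs with.
miR-298-5p: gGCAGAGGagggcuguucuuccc
miR-298-3p: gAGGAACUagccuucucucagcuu
miR-296-5p: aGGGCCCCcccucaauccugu
miR-296-3p: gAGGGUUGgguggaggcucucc
The 4 seeds differ from each other, and none was shared with any mature miRNA of another RefSeq hairpin, so the members form no seed family. The assay named miR-298 gives no arm; the name without an arm was the earlier name of the 5p strand, and the primer sequence was not used here. The longest run of letters shared between any pair of these 4 arms was 5 bases. GC content was 65.2% in miR-298-5p, 66.7% in miR-296-5p and 68.2% in miR-296-3p, higher than in 87.6%, 89.0% and 92.1% of the 1679 mature mouse miRNA names in RefSeq, whereas miR-298-3p held 50.0%.

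All 3 members had a Ct below 35 in all 6 samples, the limit for an assay to be tested, as had 274 of the 345 assays in the authors' normalized table. A Ct counts PCR cycles, so that a later Ct means less RNA and 1 cycle is a 2-fold difference. miR-298 had a Ct of 28.97, 31.12 and 34.43 in rounds 1, 2 and 3 of DC priming, against 26.12, 26.88 and 28.54 in rounds 1, 2 and 3 of B cell priming. The DC-primed samples were thus all later than the B cell-primed ones, and the latest, that of round 3, came close to the limit. miR-296-5p gave Ct values of 27.24, 31.12 and 31.34 after DC priming, against 23.19, 27.75 and 27.25 after B cell priming. Here the DC-primed sample of round 1 was earlier than both the round 2 and the round 3 sample of B cell-primed cells, so the groups overlapped before normalization. miR-296-3p gave Ct values of 29.33, 31.24 and 33.12 after DC priming, against 27.29, 28.50 and 29.44 after B cell priming, and the groups overlapped by the DC-primed sample of round 1 alone. Of the 274 tested assays, 9.49% had raw Ct values that were later in all DC-primed than in all B cell-primed samples, miR-298 among them.

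For the members, the authors' dCt was the Ct minus 1 number per sample. Levels are given here as minus dCt, a log2 scale on which a higher value means more miRNA. miR-298 had a level of -2.79, -2.66 and -3.97 in rounds 1, 2 and 3 of DC priming, against 0.23, 0.24 and -0.91 in rounds 1, 2 and 3 of B cell priming. The groups stood apart by 1.75 units between the highest DC-primed and the lowest B cell-primed sample. The mean was -3.14 ± 0.72 after DC priming and -0.14 ± 0.66 after B cell priming (± SD, n = 3 each), a difference of -3.00 ± 0.71 (limma's moderated standard error), or 0.125-fold. By round the difference was -3.02, -2.90 and -3.06.

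miR-296-5p had a level of -1.06, -2.66 and -0.88 in DC-primed cells, against 3.16, -0.63 and 0.38 in B cell-primed cells. The groups did not overlap, but only 0.26 units lay between the DC-primed sample of round 3 and the B cell-primed sample of round 2, and the B cell-primed sample of round 1 stood well above all others. The mean was -1.53 ± 0.98 after DC priming and 0.97 ± 1.96 after B cell priming (± SD, n = 3 each), a difference of -2.51 ± 1.05 (SE), or 0.176-fold. By round it was -4.22, -2.03 and -1.26, and without the B cell-primed sample of round 1 the mean difference was -1.41.

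miR-296-3p, from the other arm of the same hairpin, had a level of -3.15, -2.78 and -2.66 in DC-primed cells, against -0.94, -1.38 and -1.81 in B cell-primed cells. It showed the tightest groups of the 3, with means of -2.86 ± 0.25 after DC priming and -1.37 ± 0.44 after B cell priming (± SD, n = 3 each). The difference was -1.49 ± 0.63 (SE), or 0.356-fold, with -2.21, -1.40 and -0.85 by round.

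**Figure D1:**
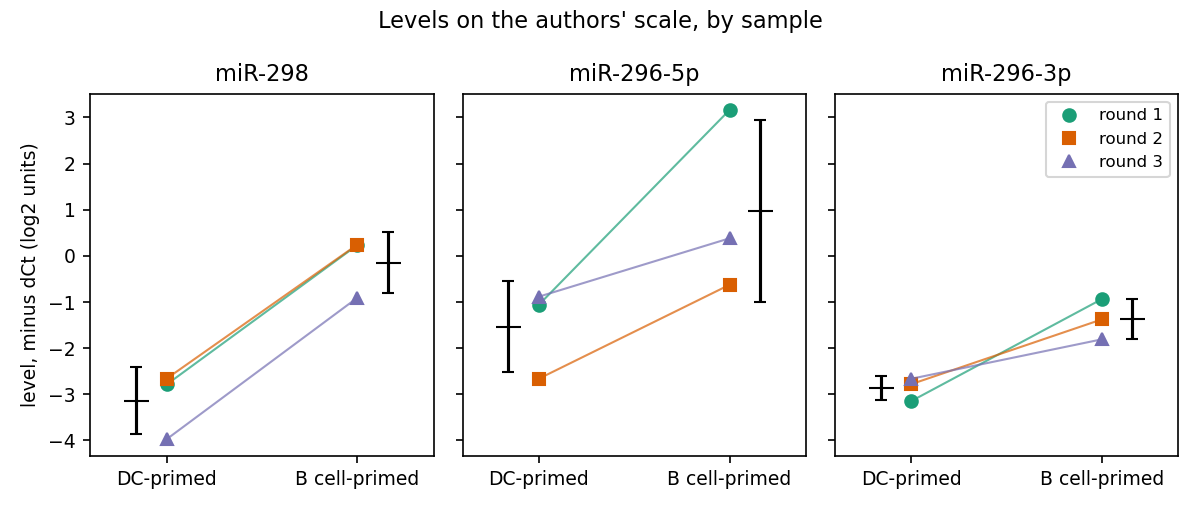
Level (minus dCt, log2 units) of each member in each sample, DC-primed left and B cell-primed right, with a line joining the samples of 1 round and bars for the group mean ± SD (n = 3). All DC-primed points lie below all B cell-primed points in each panel, by 1.75 units for miR-298, 0.26 for miR-296-5p and 0.85 for miR-296-3p.

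Read against the whole table, a level in DC-primed cells below that of every B cell-primed sample was found in 8.03% of the 274 tested assays, and a difference of -1 or lower with the same sign in all 3 rounds in 10.9%. All 3 members met both descriptions, which they were chosen for. With limma and Benjamini-Hochberg adjustment at 0.05, 0 of 274 assays (0%) passed, with or without the round as a block, while 24 assays without the block and 33 with it had an unadjusted p under 0.05. The authors' deposited table holds a paired test for 345 assays, of which 18 had an unadjusted p under 0.05 and 0 remained under 0.05 after Benjamini-Hochberg adjustment.

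In the order of differences miR-298 was seventh from the low end, between miR-23b, of the miR-23b cluster, at -3.12 ± 0.82 (SE) and miR-19b, of the miR-17/miR-92a cluster, at -2.92 ± 1.45. The miR-23b value rests on its deposited dCt; its deposited Ct differs from that in 4 samples and gives -1.79. In the order made from the deposited Ct of all assays miR-298 was at place 5. These neighbours lay within the standard errors of miR-298. miR-296-5p was at place 11, between the human-named miR-520g at -2.69 ± 0.91 and miR-20a at -2.47 ± 0.90. miR-296-3p was at place 29, between miR-720 at -1.53 ± 1.17 and miR-25 at -1.48 ± 0.88. On the authors' scale the difference of miR-298 was even, with an SD of 0.083 over the 3 rounds, the second smallest of 274 after miR-500 at 0.079, where the median assay had 1.17. miR-500 differed by only 0.44. The SD of miR-298 over rounds was 0.37 relative to the median Ct, with -3.31, -3.17 and -2.61 by round, and 0.35 after quantile normalization, with -2.66, -3.10 and -3.36. Without normalization it was 1.52, with -2.85, -4.24 and -5.89, and relative to all RNY3 and snoRD47 wells 1.68, with -1.76, -0.72 and -4.01. The evenness thus depended on the scaling. On the authors' scale the SD over rounds was 1.53 for miR-296-5p and 0.68 for miR-296-3p.

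**Figure D2:**
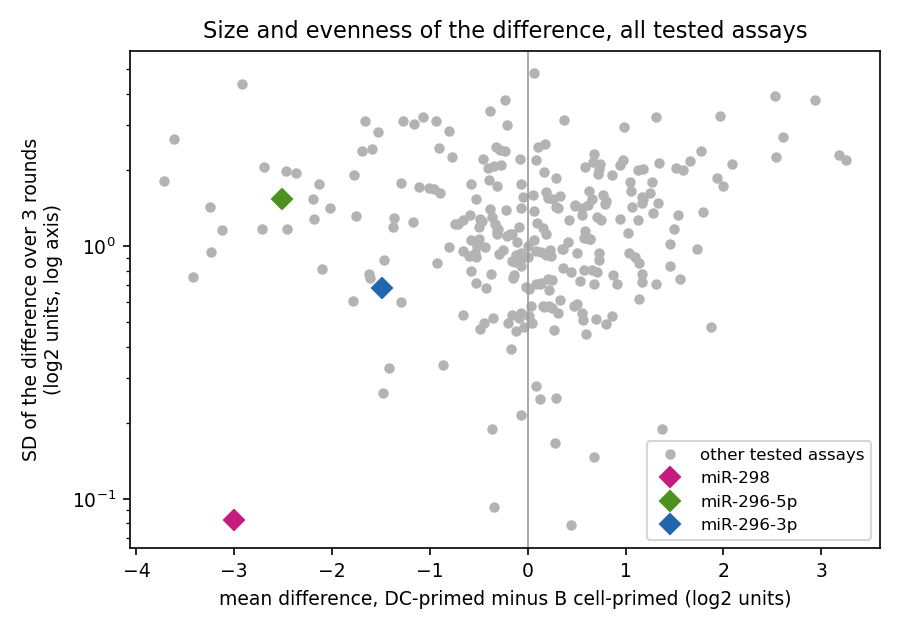
Mean difference, DC-primed minus B cell-primed (log2 units, x axis), against the SD of that difference over 3 rounds (log2 units, log axis) for the 274 tested assays, with the members as coloured diamonds. miR-298 sits at -3.00 with an SD of 0.083, far below the median SD of 1.17, while miR-296-5p sits among the other assays at 1.53.

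The place of an assay in the order of Ct within 1 sample does not depend on any number subtracted from that sample, although it depends on how well each primer amplifies. Counted from the earliest Ct, miR-298 was at place 204, 229.5 and 261 of 274 in rounds 1, 2 and 3 of DC priming, against 106, 117 and 156.5 in rounds 1, 2 and 3 of B cell priming. It thus stood among the later assays in DC-primed cells and nearer the middle in B cell-primed cells. miR-296-5p was at place 154.5, 229.5 and 146 in DC-primed cells, against 47, 138.5 and 109 in B cell-primed cells. miR-296-3p was at place 218, 236 and 223.5 in DC-primed cells, against 154, 162 and 194 in B cell-primed cells. In each of the 3 assays every DC-primed place was later than every B cell-primed place, by the least for miR-296-5p. The same was found in 7.66% of the 274 tested assays, and since the members were chosen for their difference in the same Ct values, these places are no separate evidence.

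**Figure D3:**
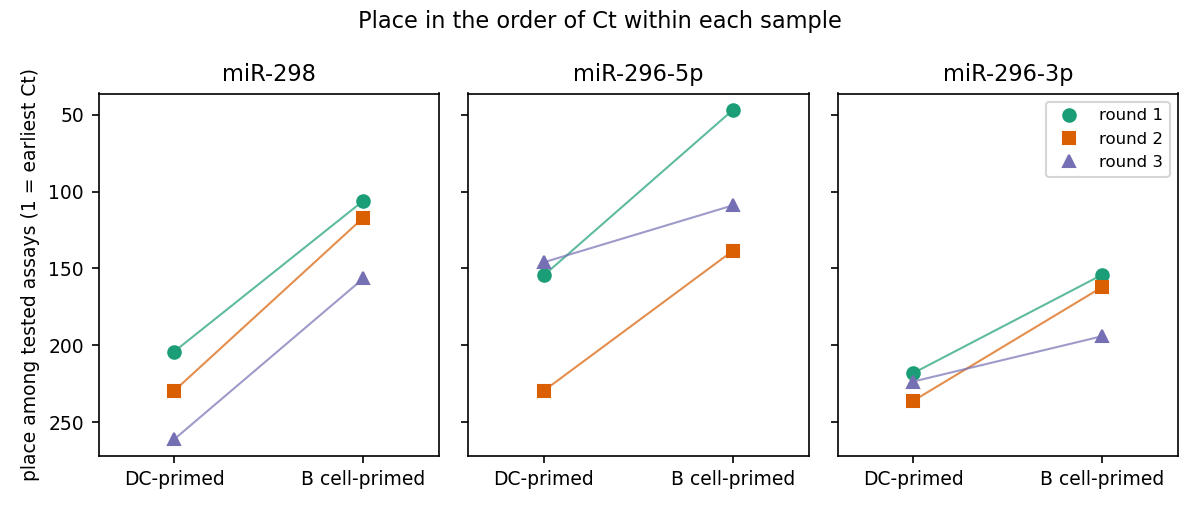
Place of each member in the order of Ct among the 274 tested assays of a sample (1 is the earliest Ct; the axis runs downward), DC-primed left and B cell-primed right, with a line per round. In all panels the DC-primed points lie lower, at 204 to 261 for miR-298, 146 to 229.5 for miR-296-5p and 218 to 236 for miR-296-3p.

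The gaps between members within a sample are also free of the per-sample number. The 5p level of miR-296 was above its 3p level by 2.09, 0.12 and 1.78 in DC-primed cells, against 4.10, 0.75 and 2.19 in B cell-primed cells. The gap was the smaller in the DC-primed sample of every round, and its means, 1.33 ± 1.06 after DC priming and 2.35 ± 1.68 after B cell priming (± SD, n = 3 each), differed by less than the SD in B cell-primed cells. miR-298 lay above miR-296-3p by 0.36 and 0.12 in DC-primed samples 1 and 2 and at -1.31 in that of round 3, against 1.17, 1.62 and 0.90 in B cell-primed cells. Those groups did not overlap, and the gap differed by -1.51. The gaps follow from the differences the members were chosen for, so they are no separate evidence. How many other pairs of assays do the same was not counted. Set against miR-296-5p, miR-298 was at -1.73, 0 and -3.09 in DC-primed cells and at -2.93, 0.87 and -1.29 in B cell-primed cells. These groups overlapped, with round differences of 1.20, -0.87 and -1.80 around a mean of -0.49.

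Over the 6 samples the levels of miR-298 and miR-296-3p had a Pearson correlation of 0.91, those of the 2 arms of miR-296 one of 0.79 and those of miR-298 and miR-296-5p one of 0.64. These values include the difference between the groups that chose the members. After the group means were taken off, the correlations of these pairs were 0.27, 0.51 and -0.06, the last of these, near 0, being that of miR-298 and miR-296-5p. The points share the per-sample number and the same RNA.

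Among 240 other mouse-named tested assays, the 5 with levels most correlated with miR-298 over the 6 samples were miR-23b at 0.93, miR-374 at 0.92, miR-18a*, the passenger strand of miR-18a, at 0.91, miR-296-3p at 0.91 and miR-182 at 0.87. From its deposited Ct, miR-23b had a correlation of 0.64. miR-296-5p was at place 28 in that order. The assays most correlated with miR-296-5p were miR-370 at 0.96, miR-92b at 0.94, miR-712 at 0.87, miR-487b at 0.86 and miR-677 at 0.86, with miR-296-3p at place 8 and miR-298 at place 22. All the assays listed for either member were lower in DC-primed cells, so these correlations also include the difference between the groups. Of those listed for miR-296-5p, miR-370 and miR-487b belong to the imprinted Dlk1-Dio3 locus. miR-370 had a level of 4.67, 3.47 and 4.56 in DC-primed cells, against 6.80, 5.41 and 5.31 in B cell-primed cells. The highest DC-primed sample of miR-370 was that of round 1, and of miR-296-5p that of round 3, while round 1 was the highest B cell-primed sample of both.

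Other imprinted miRNA loci were set beside the members. Of 28 tested assays of the Dlk1-Dio3 locus, a large maternally expressed miRNA cluster, 18 were lower and 10 higher in DC-primed cells, with 0 called and a median difference of -0.16, from miR-758 at -2.37 to miR-154 at 1.59. Differences of -1 or lower were found in 7 of the 28, against 42 of the 274 tested assays, whose median difference was 0.07. All 8 assays of the cluster in an intron of Sfmbt2, which is expressed from the paternal allele, were tested; 1 was lower and 7 higher, with a median of 0.28, from miR-467b at -0.36 to miR-297a* at 1.27. miR-335-3p, encoded in the paternally expressed Mest, differed by 0.19. miR-675-5p, made from the maternally expressed H19, was not tested because its Ct in the DC-primed sample of round 3 was 35.26. It gave Ct values of 30.96, 33.57 and 35.26 after DC priming, against 29.72, 31.34 and 30.71 after B cell priming, with a difference of -1.34. Of the 28 Dlk1-Dio3 assays, 4 had a more negative difference than miR-296-3p, among them miR-758 and miR-487b (-2.10), and 0 a more negative one than miR-298 or miR-296-5p, which had been chosen for theirs.

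Among the other tested mouse-named assays matched by name to hairpins on chromosome 2 alone, 5 in number, none differed by -1 or lower. They ranged from miR-130a at -0.48 to miR-147 at 3.25, with a median of 0.33. Assays without a match, those of the Sfmbt2 cluster among them, were left out here, so others may lie on this chromosome. Hairpin GC content could be matched for 199 of 241 mouse-named tested assays (82.6%), and over these its correlation with the difference was 0.03. The Mir298 and Mir296 hairpins held 53.7% and 63.3% GC, and 65 other assays with at least 53.7% had a median difference of 0.14, with 9 at -1 or lower.

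All 3 members lay in the last of 4 runs of 94 rows that make up the deposited Ct table. Each run holds 2 wells of the small RNAs RNY3 and snoRD47 at the same places, and the labels do not say what the runs are. RNY3 was 3.84, 4.70 and 6.11 cycles later in the fourth run than in the other 3 runs in rounds 1, 2 and 3 of DC priming, against 4.07, 3.91 and 3.31 cycles in rounds 1, 2 and 3 of B cell priming. snoRD47 was 7.58, 12.4 and 10.3 cycles later there in DC-primed cells, against 7.51, 9.08 and 6.39 in B cell-primed cells. The shift was larger in DC-primed samples 2 and 3 than in their B cell-primed partners, and close to that of the partner in round 1. The 2 snoRD47 wells of the fourth run were themselves 7.65 and 4.27 cycles apart in DC-primed samples 2 and 3.

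The miRNA assays of the fourth run did not follow the small RNAs to that extent. Their median Ct was 27.5, 29.75 and 31.74 in DC-primed cells, against 27.31, 28.10 and 28.66 in B cell-primed cells. In the first run it was 26.31, 28.20 and 31.04 in DC-primed cells, against 26.77, 27.15 and 27.65 in B cell-primed cells. On the authors' scale the 59 tested assays of the fourth run had a median difference of 0.08, with 11 (18.6%) at -1 or lower and 9 (15.3%) at 1 or higher. In runs 1, 2 and 3, with 75, 72 and 68 tested assays, 13.3%, 15.3% and 14.7% were at -1 or lower and 14.7%, 22.2% and 14.7% at 1 or higher. The fourth run thus had the highest share at -1 or lower of the 4. Its 11 assays include the 3 members, which were chosen for their differences, so this order is no evidence about the run.

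**Figure D4:**
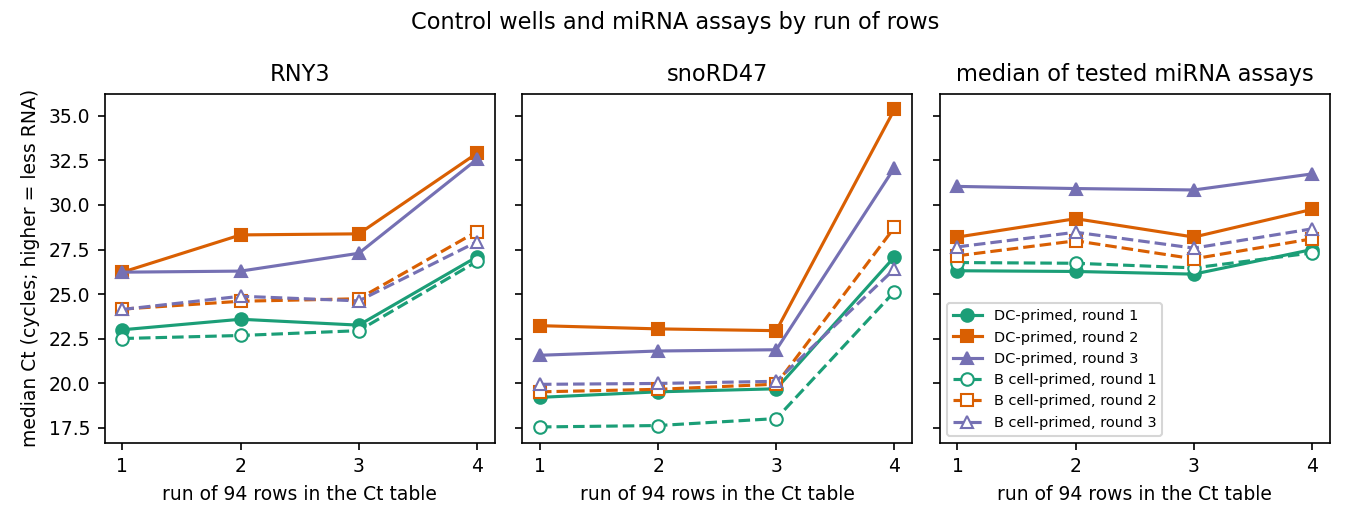
Median Ct (cycles, a higher value meaning less RNA) of the RNY3 wells, the snoRD47 wells and the tested miRNA assays in each of the 4 runs of 94 rows, with filled symbols and solid lines for DC-primed and open symbols and dashed lines for B cell-primed samples. Both small RNAs are later in the fourth run, by 3.31 to 6.11 cycles for RNY3, while the median miRNA assay of round 1 in DC-primed cells is at 27.5 there and 26.31 in the first run.

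The size and in places the sign of the members' differences therefore depended on what they were set against. Relative to the median tested assay of the fourth run, miR-298 differed by -2.69, miR-296-5p by -2.20 and miR-296-3p by -1.18, near the values on the authors' scale; there the groups of miR-296-5p overlapped and those of the others did not, against 7.66% of all tested assays that lay lower without overlap. Relative to all wells of RNY3 and snoRD47, they differed by -2.17, -1.68 and -0.66. Relative to the RNY3 wells of the fourth run, miR-298 differed by -1.23, with -2.58, 0.15 and -1.26 by round, so that the rounds differed in sign. On that scale miR-296-5p differed by -0.74, and miR-296-3p by 0.28. Relative to the snoRD47 wells of that run the differences were 0.42, 0.91 and 1.92, all 3 of the opposite sign. On each of these 3 small RNA scales the groups overlapped for all 3 members, against 1.09% of all tested assays that stayed lower without overlap relative to all wells, 1.09% relative to RNY3 by run and 1.46% relative to snoRD47 by run. The median difference of all tested assays was 0.90, 0.86 and 1.30 on these 3 scales, so that the sign there is relative to a shift of the whole table.

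**Figure D5:**
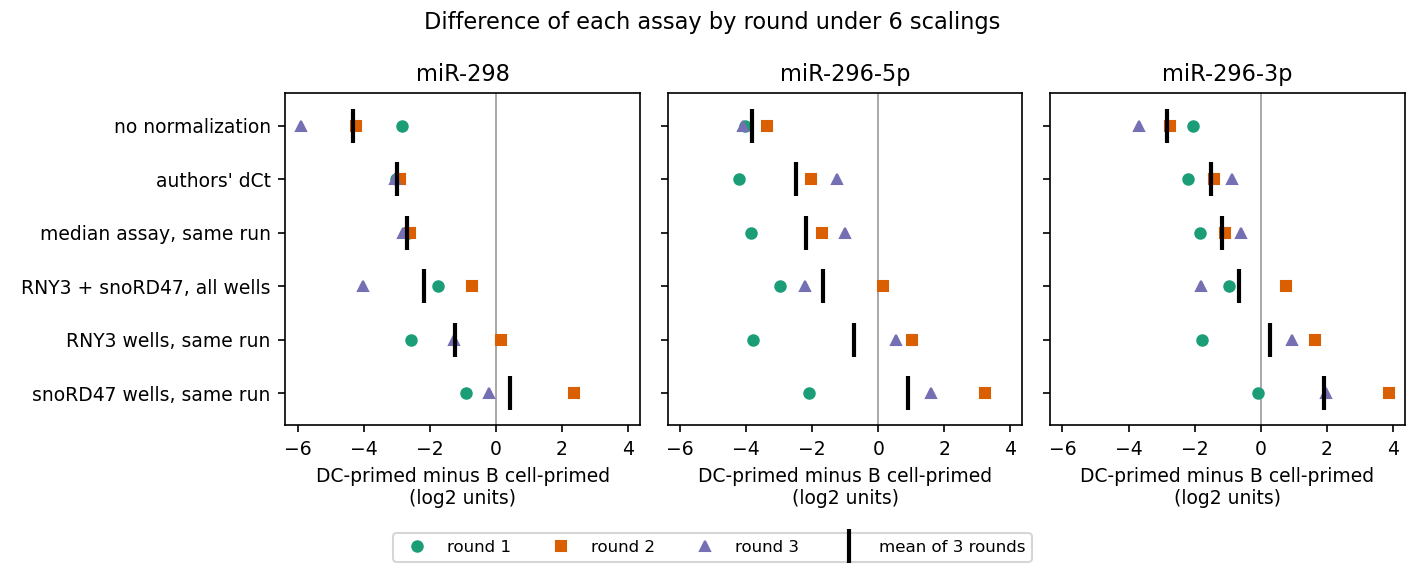
Difference, DC-primed minus B cell-primed (log2 units), of each member by round (coloured symbols) and as the mean of the 3 rounds (black bars) under 6 scalings of the same Ct values. For miR-298 the rounds lie together at -3.02, -2.90 and -3.06 on the authors' scale and spread to -2.58, 0.15 and -1.26 relative to the RNY3 wells of its own run.

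The samples themselves differed in ways that went only partly with the groups. Between 280 and 337 of 350 miRNA assays had a Ct below 35 in the DC-primed samples, against 336 to 341 in the B cell-primed samples, and the DC-primed sample of round 3 was the lowest. Without that sample miR-298 differed by -2.58, miR-296-5p by -2.83 and miR-296-3p by -1.59. The labelled cell type was checked by its miRNAs. The T cell miRNAs miR-150, miR-181a and miR-155 had a Ct below 35 in all samples, as had miR-142-5p of blood cells in general, while miR-142-3p had no Ct in the DC-primed sample of round 3. None of these marks T cells alone. All 3 T cell miRNAs had a higher mean level in DC-primed cells, as had 146 of the 274 tested assays. In round 3 all 3 went the other way, with differences of -0.55, -1.79 and -3.25. Of the miRNAs of myeloid and dendritic cells, 4 of 5 listed were in the table and all 4 had a higher mean level in DC-primed cells. Their summed level, as 2 to the power of minus dCt, ranged from 2.06 to 127 in DC-primed and from 1.56 to 3.00 in B cell-primed samples. By round, miR-22 differed by -0.39 in round 2 and miR-125a-5p by -0.20 in round 3. miR-223, abundant in myeloid cells, gave Ct values of 20.82, 27.23 and 36.99 after DC priming, against 32.14, 32.44 and 32.67 after B cell priming. miR-223 was thus earlier in the DC-primed sample of rounds 1 and 2 and later in that of round 3. The B lymphocyte list holds no miRNA of B cells alone and shares miR-150 with the T cell list. All 3 of its miRNAs had a higher mean level in DC-primed cells. Their summed level was 18.8 to 49.7 in DC-primed and 11.5 to 18.1 in B cell-primed samples. Of these, miR-150 was lower in the DC-primed sample of round 3, and miR-34a and miR-148a in that of round 2. The part of such cells in the members' differences was not tested.

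The endothelial miR-126-3p and miR-126-5p were checked because miR-296 is known from endothelial cells. miR-126-3p gave Ct values of 30.43, 39.81 and 38.99 after DC priming, against 29.41, 28.98 and 31.86 after B cell priming, and was not tested because of the 2 late values. Its level was -4.25, -11.35 and -8.53 after DC priming, against -3.06, -1.86 and -4.23 after B cell priming, a difference of -5.00. It was lower in the DC-primed sample of every round. Its groups were parted only by -4.25 against -4.23, and in raw Ct they overlapped. Of all 345 assays without the Ct limit, 34 lay lower in DC-primed cells without overlap on the authors' scale. miR-126-5p, from the same hairpin, had a Ct below 35 in all samples and differed by -0.09, with -1.44, 0.39 and 0.80 by round. The summed level of both was 0.334 to 1.26 in DC-primed and 0.776 to 0.885 in B cell-primed samples, most of it from miR-126-5p. The part of such cells in the members' values was not tested.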

How the data were processed

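The members and lists were chosen with earlier results of these data known. RNA was extracted with the mirVana kit, treated with DNase I, tailed with poly(A), copied from tagged oligo-dT primers and amplified with a miRNA-specific forward and a universal reverse primer, per the labels' protocols. The deposited Ct are not normalized and the deposited dCt are on a log2 scale, per the file headers, which were followed where file names differ. To make dCt, the authors normalized to the geometric mean over all Ct of a sample, per the file headers; for the members, Ct minus 1 number per sample gave it within 0.02 cycles. The authors' fold change is a ratio with DC-primed on top, and their p-value comes from a paired t-test (two-sided), per the file headers. Each member had 1 well per sample, and nothing says that rounds came from separate animals, so errors measure only the spread between these samples.

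limma 3.58.1 in R 4.3.3 (lmFit, eBayes, no block) was run on minus dCt of 274 assays with a Ct below 35 in all 6 samples, 71 being left out; it was tested on simulated data. Differences are DC-primed minus B cell-primed. The rounds of the titles were taken to pair the samples. Deviations of same-round samples correlated at 0.16, 0.14 and 0.46 over assays. The DC-primed sample of round 1 correlated more with the B cell-primed sample of round 2 (0.34), so these values do not establish the pairing. Named miRNAs followed a rule: the members, their neighbours in the order of differences, the 5 most correlated assays, and the largest and smallest of each imprinted locus; the others named are markers and list members. Scalings by run of rows were added after the data were seen. Sequences and positions are from RefSeq (GRCm38.p6). Figures used matplotlib 3.10.9 in Python 3.11.15.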

Additional observations from a re-analysis of the deposited data

How the results depend on the processing

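miR-298 kept its direction under 14 of 15 alternatives, miR-296-5p under 14 and miR-296-3p under 13. Part of this count was fixed in advance. The round as a block leaves each mean difference unchanged. Leaving out 1 sample cannot turn the sign where the groups do not overlap, as on the authors' scale. Every change of sign came relative to same-run RNY3 or snoRD47 wells. Without normalization miR-298 differed by -4.33 and miR-296-3p by -2.82. Relative to all RNY3 and snoRD47 wells these were -2.17 and -0.66. Relative to same-run RNY3 the 3 members (miR-298, miR-296-5p, miR-296-3p) were at -1.23, -0.74 and 0.28, relative to same-run snoRD47 at 0.42, 0.91 and 1.92, and relative to same-run cel-mir-67, a worm miRNA, miR-298 was at -4.31 and miR-296-3p at -2.80. The cause was not tested. Leaving out 1 sample gave -3.38 to -2.58 for miR-298, -3.31 to -1.41 for miR-296-5p (the last without B cell-primed sample 1), -1.71 to -1.27 for miR-296-3p, and -1.40 to 0.50 for the gap of miR-298 over miR-296-5p, its sign turning without DC-primed sample 3 (0.25) or B cell-primed sample 2 (0.50). With the round as a replicate block the differences were -3.00, -2.51 and -1.49, with standard errors of 0.77, 0.83 and 0.79, and the block changed no call. limma called 2 assays without DC-primed sample 3 and 0 under the other settings. The count of 30 assays at -1 or lower with 1 sign in all rounds was 101 without normalization, 8 relative to all RNY3 and snoRD47 wells, 9, 3 and 4 relative to same-run RNY3, snoRD47 and cel-mir-67, 47 unfiltered and 15 with assays limited to Ct 32. At that limit miR-298 and miR-296-3p drop out. Each value rests on 1 well per sample.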

Other observations

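The wells of cel-mir-67, a miRNA of Caenorhabditis elegans, had a median Ct in the fourth run of 20.50, 26.16 and 18.59 in rounds 1, 2 and 3 of DC priming, against 24.42, 21.05 and 19.73 in those of B cell priming. The labels do not say what these wells were for. Relative to them miR-298 differed by -6.77, 0.87 and -7.02 by round.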
